A study of Homo sapiens with 8 samples.

Results

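The TGF-beta, activin and BMP pathway was followed through 44 genes, taken by symbol from the deposited tables. They were 9 ligands, 10 receptors, 8 SMADs, 5 genes of ligand latency and release, 8 inhibitors or regulators and 4 target genes. All 44 were among the 46427 symbols of the count table, and all 44 passed the filter on low counts that left 18303 genes. RNA came from wild-type cells derived from the human embryonic stem cell line H7 and labelled as differentiated type 2 alveolar cells, which were grown through endoderm, foregut and lung progenitor stages for 21 days and then on inserts, with 7 days at an air-liquid interface. There were 4 groups of 2 libraries each: control cells, called untreated here, and cells with bleomycin at 24, 240 or 480 µg/ml on the apical side for 24 hours. Bleomycin is an antibiotic that breaks DNA and is used to provoke lung fibrosis in animals. The labels name a single stem cell line, do not say whether the 2 libraries of a group were separate cultures or whether control cells received the buffer, and give a stock of 10 µg/ml, which is below every dose. What the p-values measure is thus the scatter of these libraries, and it may be technical. Total counts were 53431773 to 67715984 per library. The study set out to look for fibrosis-related expression in such cells.

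Ligands of this family are secreted dimers that bind pairs of type I and type II serine/threonine kinase receptors. TGF-betas and activins pass their signal mainly through SMAD2 and SMAD3, and BMPs through SMAD1, SMAD5 and SMAD9, with SMAD4 as the partner of both branches. TGF-beta leaves the cell locked in a latent complex bound to LTBP proteins, from which thrombospondin or integrins can release it, and in the lung it is best known for driving matrix production in fibrosis. BMP signalling is read out by the ID genes, and TGF-beta signalling by genes such as PMEPA1.

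At 480 µg/ml a set of these genes was lower than in untreated cells, among them the ligand genes TGFB2, TGFB3 and INHBA, the transducers SMAD1, SMAD3 and SMAD4 and the activator gene THBS1. LTBP2, of the matrix, was the gene that rose, and TGFB1 was not called at any dose. The words called, rose and fell are used where edgeR's quasi-likelihood test gave an adjusted p under 0.05 over all 18303 genes, and a change printed with ± is a log2 fold change with its SE. At 480 µg/ml 12 of the 44 genes fell and 1 rose, together 29.5% of them, where 27.8% of all genes tested were called. The falling share was 27.3%, against 13.9% of all genes falling at that dose and 13.9% rising. Such shares of the members were not tested, as the members were chosen with earlier results of these data known. At 240 µg/ml 6 of the 44 fell, or 13.6%, and 0 rose, beside 5.17% of all genes falling, 5.16% rising and 10.3% called in all. At 24 µg/ml edgeR called 0 of the 44 and 0.0% of all genes; 4 of the 44 had unadjusted p under 0.05, beside 3.31% of all genes, and DESeq2 called 1, INHBA, as lower. The 6 genes that fell at 240 µg/ml were all among the 12 that fell at 480 µg/ml, comparisons that share their untreated libraries. The median log2 fold change of the 44 was 0.04, −0.14 and −0.14 from the lowest to the highest dose, beside 0.01 for all genes at each dose. Of the 13 calls at 480 µg/ml 5 held under all 15 alternative settings tried (TGFB3, INHBA, SMAD3, THBS1 and PMEPA1), and 0 of the 6 at 240 µg/ml did.

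**Figure D1:**
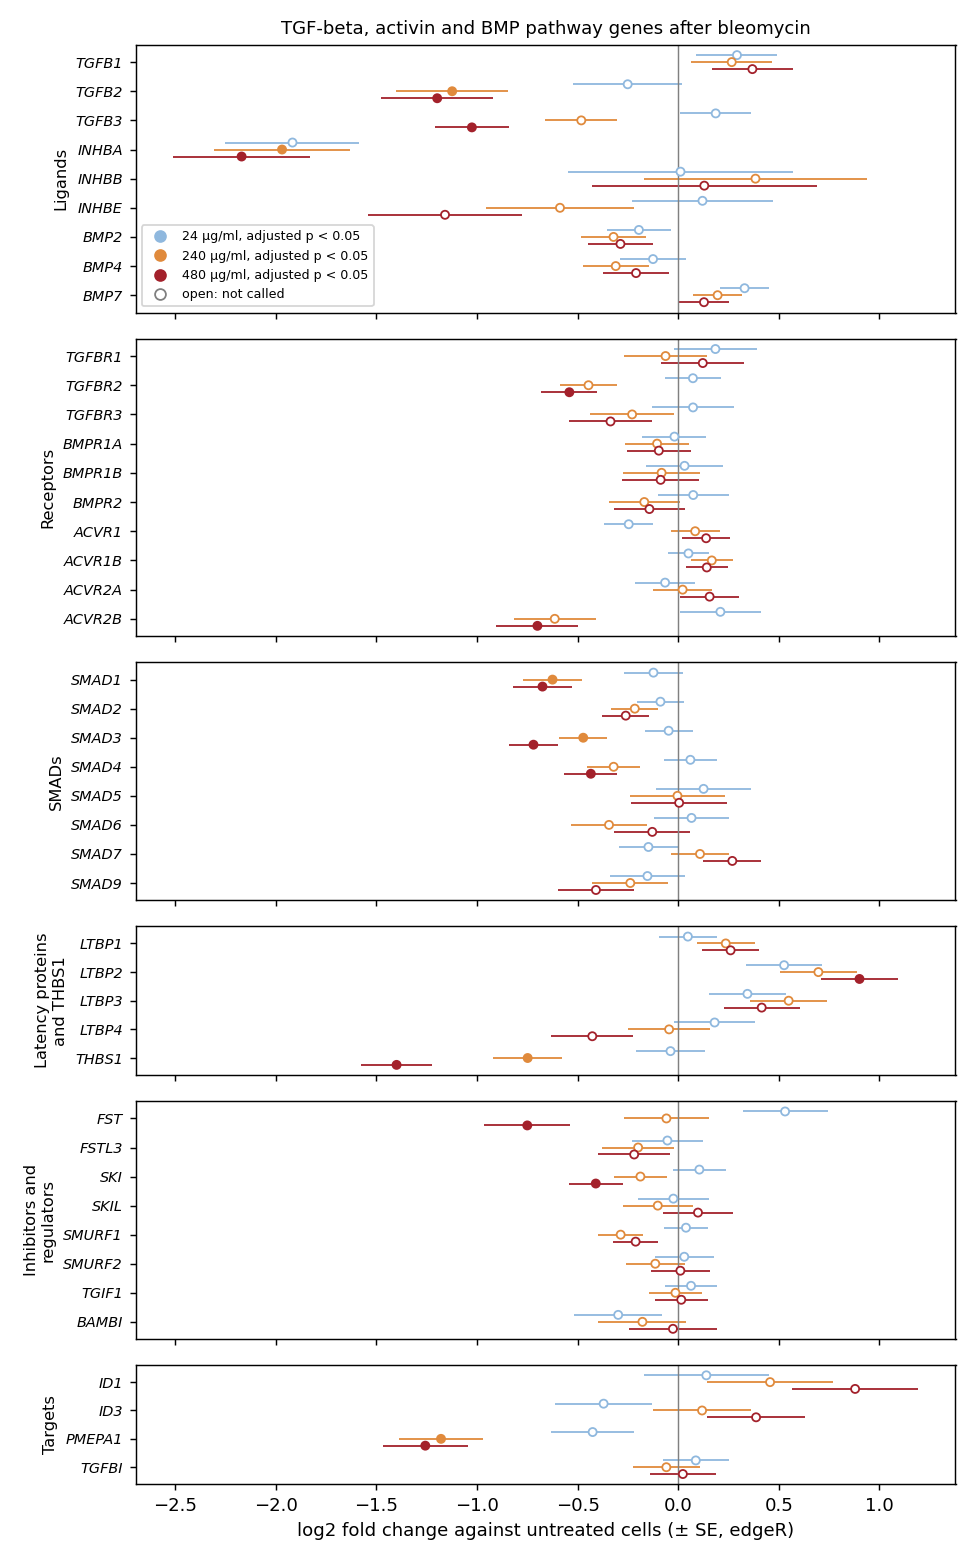
Log2 fold change against untreated cells (x axis, ± SE, edgeR) of the 44 genes at 24, 240 and 480 µg/ml, grouped by role, with called genes filled and the others open. INHBA lies farthest to the left at all 3 doses, at −1.92, −1.97 and −2.17, and LTBP2 is the filled point to the right of 0.

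Both libraries at 480 µg/ml lay below both untreated libraries for 19 of the 44 genes and above them for 9, beside 30.3% and 31.8% of all genes. These are bulk values, in which fewer cells of a type and less RNA per cell cannot be told apart. Most markers of the labelled cell type were low. The surfactant gene SFTPC, which defines type 2 cells, had 0 counts in 6 of 8 libraries and at most 0.123 CPM (counts scaled to a common library size), and SFTPB had 5.21 to 31.2 CPM. SFTPA1, SFTPA2, SFTPD and NAPSA, further type 2 genes, had at most 0.395 CPM, and NKX2-1, the lung lineage factor, at most 1.27 CPM. Genes of other endoderm were high: AFP, a fetal liver gene, took 3.37% to 6.34% of all counts, and CDH17 and CDX2, known from intestine, had 1538 to 2301 and 189 to 415 CPM. Of the 9 type 2 markers 1 fell at 240 µg/ml, and 2 fell and 1 rose at 480 µg/ml, with summed levels of 34.4 to 43.2 CPM at 480 µg/ml and 42.4 to 47.9 CPM in untreated cells. SLC34A2, a phosphate transporter gene, fell by 2.26 on the log2 scale at 240 µg/ml and by 3.35 at 480 µg/ml. SFTPB fell by 1.30 at 480 µg/ml, and ABCA3, a lipid transporter gene, rose, with 25.7 and 32.2 CPM there, against 11.9 and 14.2 CPM in untreated cells.

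Some markers of other cell types were called. Of all genes tested 13.9% fell and 13.9% rose at 480 µg/ml, and 5.17% fell and 5.16% rose at 240 µg/ml. The lists below and the type 2 list hold 4 to 9 markers each, and no test was made of their shares. Of 9 mesenchymal markers 5 fell and 1 rose at 480 µg/ml and 3 fell at 240 µg/ml, while their summed level, most of it LUM, was 435 to 494 CPM at 480 µg/ml and 466 to 505 CPM in untreated cells. COL3A1 had 25.6 and 26.7 CPM at 480 µg/ml, against 47.1 and 59.5 CPM in untreated cells. Of 7 hepatic markers 3 rose and 0 fell at 480 µg/ml, and 2 rose at 240 µg/ml. Their summed level was 53183 to 54602 CPM in untreated cells, 40035 to 58138 at 24 µg/ml, 77570 to 84280 at 240 µg/ml and 65406 to 69391 at 480 µg/ml, highest at 240 µg/ml. Most of it was AFP, which was not called at 480 µg/ml (0.20, edgeR adjusted p = 0.370). Of 5 intestinal markers CDX2 rose and LGALS4 fell at 480 µg/ml, with sums of 2572 to 2967 CPM there and 2574 to 2575 CPM in untreated cells. Of 6 type 1 alveolar markers 2 fell at that dose, with sums of 14.8 to 17.8 CPM and of 29.3 to 35.0 CPM in untreated cells, and of 4 lung progenitor markers 2 fell, with sums of 192 to 227 CPM and of 274 to 282 CPM in untreated cells. Of 4 epithelial markers 1 fell, of 5 endothelial markers 1 rose and of 4 blood markers 1 rose at 480 µg/ml. Of 4 pluripotent markers 2 fell, with summed levels of 16.1 to 16.4 CPM at 480 µg/ml and 50.9 to 56.8 CPM in untreated cells, and POU5F1 was at 0 in all 8 libraries. The part of these cells in the values that follow was not tested.

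The sequences around the start sites of 4 genes are given because 3 of them, INHBA, THBS1 and TGFB2, had the largest called falls at 480 µg/ml among members with a single RefSeq promoter window, and LTBP2 was the only member that rose. Each is the RefSeq window on GRCh38.p14, from 250 bases before an annotated start to 50 after it, read on the gene's strand, with the 5 letters CAGAC, the core of the SMAD3 and SMAD4 element, in capitals where they occur in that direction. INHBA lies at chr7:41703041-41703340 on the minus strand, around an annotated start inside the gene, THBS1 at chr15:39580829-39581128 on the plus strand, TGFB2 at chr1:218345086-218345385 on the plus strand and LTBP2 at chr14:74612188-74612487 on the minus strand.
INHBA: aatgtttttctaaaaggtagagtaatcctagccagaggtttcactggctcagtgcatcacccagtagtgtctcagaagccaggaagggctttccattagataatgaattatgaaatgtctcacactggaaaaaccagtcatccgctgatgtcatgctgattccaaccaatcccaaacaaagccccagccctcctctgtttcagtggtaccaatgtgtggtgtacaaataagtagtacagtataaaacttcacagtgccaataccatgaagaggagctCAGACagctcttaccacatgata
THBS1: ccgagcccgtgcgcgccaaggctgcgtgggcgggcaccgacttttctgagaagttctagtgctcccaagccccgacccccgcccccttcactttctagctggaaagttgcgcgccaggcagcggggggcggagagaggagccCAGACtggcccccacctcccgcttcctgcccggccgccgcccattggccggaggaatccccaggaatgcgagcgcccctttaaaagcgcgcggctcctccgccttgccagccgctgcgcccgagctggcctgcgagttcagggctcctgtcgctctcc
TGFB2: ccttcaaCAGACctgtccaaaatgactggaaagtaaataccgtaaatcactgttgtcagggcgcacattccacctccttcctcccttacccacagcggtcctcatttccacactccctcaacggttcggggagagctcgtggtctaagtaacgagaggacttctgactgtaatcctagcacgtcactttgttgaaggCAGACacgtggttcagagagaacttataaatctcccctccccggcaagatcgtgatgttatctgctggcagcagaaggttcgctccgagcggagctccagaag
LTBP2: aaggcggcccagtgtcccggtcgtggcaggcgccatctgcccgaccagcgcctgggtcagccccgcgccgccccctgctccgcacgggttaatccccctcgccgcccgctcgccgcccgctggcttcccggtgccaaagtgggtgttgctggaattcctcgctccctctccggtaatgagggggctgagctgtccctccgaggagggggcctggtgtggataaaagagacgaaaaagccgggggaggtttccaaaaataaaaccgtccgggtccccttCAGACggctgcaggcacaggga
The element began at base 27 after the start base in INHBA, at −108 in THBS1, at −243 and −53 in TGFB2 and at 28 in LTBP2.

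Such elements were common in all promoters. RefSeq windows were found for 40 of the 44 genes, 80 windows in all, since many genes have several, which can overlap. CAGAC or its reverse complement GTCTG was in 45.8% of the windows of genes that fell at 480 µg/ml (11 of 24), in 57.1% of those of the other members and in 45.3% of all 35116 windows. The BMP-SMAD letters GGCGCC, the same on both strands, were in 20.8%, 26.8% and 19.2% of these sets. The AP-1 letters TGACTCA or TGAGTCA were in 12.5% (3 of 24), 1.79% and 4.95%. In the 18991 windows of genes that were tested, as all members were, the shares were 44.1% for CAGAC, 27.0% for GGCGCC and 3.77% for the AP-1 letters. TGACTCA ends in letters with which CAGAC begins, so matches can share bases. A match is not a bound site, and no test was made of these shares.

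Among the ligands, TGFB2, TGFB3 and the activin gene INHBA fell, and TGFB1 and the BMP genes were not called. At 480 µg/ml 3 of the 9 ligands fell, or 33.3%, beside 13.9% of all genes falling and 27.8% called. At 240 µg/ml 2 fell, or 22.2%, beside 5.17% of all genes falling and 10.3% called. TGFB2 (chr1:218345336-218444619), a TGF-beta of epithelia and development, had 11.0 and 11.1 CPM in untreated cells, 7.10 and 11.5 at 24 µg/ml, 5.30 and 4.86 at 240 µg/ml, with 6.07 and 3.60 at 480 µg/ml. All 4 libraries at the upper doses lay below all 4 others. The transcript TGFB2-OT1, on the same strand and within 26.6% of its exon bases, had 2 to 14 counts where TGFB2 had 222 to 787. The log2 fold change of TGFB2 was −1.12 ± 0.28 (SE) at 240 µg/ml (edgeR adjusted p = 0.0374) and −1.20 ± 0.28 at 480 µg/ml (edgeR adjusted p = 0.013). TGFB3 (chr14:75958097-75983011), the isoform known from palate closure, had 5.50 and 5.47 CPM in untreated cells, 6.15 and 6.34 at 24 µg/ml, 4.36 and 3.51 at 240 µg/ml, with 2.44 and 2.95 at 480 µg/ml. Its groups did not overlap, being highest at 24 µg/ml and lowest at 480 µg/ml. The fall was −1.03 ± 0.18 at 480 µg/ml (edgeR adjusted p = 0.00403), while −0.48 ± 0.18 at 240 µg/ml was not called (edgeR adjusted p = 0.124).

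INHBA (chr7:41685114-41705406) encodes the subunit of activin A. It had 2.43 and 2.02 CPM in untreated cells, 0.604 and 0.570 at 24 µg/ml, 0.596 and 0.539 at 240 µg/ml, with 0.649 and 0.340 at 480 µg/ml. These stand for 135 and 117 counts in untreated cells, 40 and 39 at 24 µg/ml, 31 and 33 at 240 µg/ml, with 37 and 21 at 480 µg/ml. Every treated library, the lowest dose included, lay below both untreated ones, and the 3 treated groups overlapped one another. The log2 fold change was −1.92 ± 0.33 at 24 µg/ml, where its unadjusted p of 0.000277 became 0.356 after edgeR's adjustment, −1.97 ± 0.34 at 240 µg/ml (edgeR adjusted p = 0.011) and −2.17 ± 0.34 at 480 µg/ml (edgeR adjusted p = 0.00235). Between 240 and 24 µg/ml INHBA differed by −0.05 ± 0.35. The adjusted p at 24 µg/ml was 0.0492 in DESeq2, 0.000807 in edgeR when low counts were not filtered, and 0.0465 and 0.0436 in edgeR without replicate 1 or 2 of 480 µg/ml, and lay between 0.0873 and 1 in the other 11 alternatives.

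TGFB1 (chr19:41330323-41353922), the isoform most tied to fibrosis, had 60.1 and 58.7 CPM in untreated cells, 77.7 and 67.8 at 24 µg/ml, 80.4 and 62.5 at 240 µg/ml, with 61.1 and 92.3 at 480 µg/ml. All treated libraries lay above both untreated ones, but the libraries of a dose lay far apart. The log2 fold change was 0.29 ± 0.20, 0.27 ± 0.20 and 0.37 ± 0.20 from the lowest to the highest dose, with edgeR adjusted p of 1, 0.439 and 0.205. The value at the highest dose was 0.62 without replicate 1 (edgeR adjusted p = 0.00784) and 0.04 without replicate 2 (edgeR adjusted p = 0.858). Part of its exons, 6.64%, lies antisense to HNRNPUL1, which had 9959 to 16455 counts where TGFB1 had 3341 to 5694, and the strand counted is not given in the sources used here.

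Per length, TGFB1 was the main TGF-beta transcript in every group. Its share of the summed TPM (a level per gene length, scaled to a common total) of TGFB1, TGFB2 and TGFB3 was 86.0% ± 0.173 in untreated cells, 88.5% ± 2.62 at 24 µg/ml, 92.8% ± 0.442 at 240 µg/ml and 94.3% ± 2.12 at 480 µg/ml (SD, n = 2 libraries each). The libraries at 240 and 480 µg/ml had shares of 92.4% to 95.8%, above the 85.9% to 90.3% of the other 4. INHBE, the activin E gene known from liver, had 0.557 and 0.535 CPM in untreated cells, 0.589 and 0.599 at 24 µg/ml, 0.384 and 0.343 at 240 µg/ml, with 0.210 and 0.276 at 480 µg/ml. Its groups did not overlap, but −1.16 ± 0.38 at 480 µg/ml missed the threshold (edgeR adjusted p = 0.0506). INHBB, the activin B subunit gene, had 0.326 to 0.903 CPM over all 8 libraries with overlapping groups.

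Of the 3 BMP genes 0 were called at any dose, beside 0.0% of all genes at 24 µg/ml, 10.3% at 240 µg/ml and 27.8% at 480 µg/ml. BMP4, a ligand of foregut and lung budding, had 17.2 and 17.4 CPM in untreated cells, 16.1 and 15.6 at 24 µg/ml, 15.8 and 12.1 at 240 µg/ml, with 13.3 and 16.7 at 480 µg/ml. BMP2, a ligand of the same branch, had 46.4 to 63.8 CPM in the treated libraries and 67.1 and 62.1 CPM in the untreated ones. BMP7, known from kidney and eye development, had 28.2 to 35.7 CPM in the treated libraries and 26.8 and 27.3 CPM in the untreated ones. Log2 fold changes of the 3 genes lay between −0.32 and 0.33.

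Of the 10 receptors 2 fell at 480 µg/ml, or 20%, beside 13.9% of all genes falling and 27.8% called. At 240 µg/ml 0 were called, beside 10.3% of all genes. TGFBR2 (chr3:30606356-30694142), the type II receptor of TGF-beta, had 115 and 115 CPM in untreated cells, 115 and 127 at 24 µg/ml, 87.2 and 81.9 at 240 µg/ml, with 88.7 and 69.7 at 480 µg/ml. The upper 2 doses lay below all other libraries. Its log2 fold change was −0.45 ± 0.14 at 240 µg/ml (edgeR adjusted p = 0.0767) and −0.54 ± 0.14 at 480 µg/ml (edgeR adjusted p = 0.0204). ACVR2B (chr3:38453890-38493142), a type II receptor of activins, had 48.3 and 54.1 CPM in untreated cells, 56.0 and 62.4 at 24 µg/ml, 30.1 and 36.8 at 240 µg/ml, with 38.4 and 24.7 at 480 µg/ml. It was highest at 24 µg/ml, and the upper doses overlapped. The change was −0.70 ± 0.20 at 480 µg/ml (edgeR adjusted p = 0.0327) and −1.06 or −0.42 without replicate 1 or 2 of that dose. This call held in only 6 of the 15 alternative settings. Among those that lost it were the fit of only the 2 groups, the replicate number as a block and limma.

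TGFBR1, the type I receptor of TGF-beta, had 43.0 and 56.5 CPM in untreated cells, 52.6 and 60.6 at 24 µg/ml, 46.7 and 48.6 at 240 µg/ml, with 65.2 and 43.2 at 480 µg/ml, with overlapping groups. TGFBR3, the betaglycan co-receptor, had 15.1 and 16.6 CPM in untreated cells, 16.1 and 17.4 at 24 µg/ml, 13.7 and 13.4 at 240 µg/ml, with 15.6 and 9.53 at 480 µg/ml. BMPR2, the type II receptor of BMPs, had 82.7 and 93.4 CPM in untreated cells, 94.2 and 91.3 at 24 µg/ml, 81.4 and 75.3 at 240 µg/ml, with 95.0 and 64.5 at 480 µg/ml. Both genes were called at 480 µg/ml only when replicate 1 of that dose was left out, at −0.75 for TGFBR3 and −0.46 for BMPR2. The type I receptors ACVR1, ACVR1B, BMPR1A and BMPR1B and the type II receptor ACVR2A had log2 fold changes of −0.25 to 0.17 over the 3 doses, and none was called.

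Of the 8 SMADs 3 fell at 480 µg/ml, or 37.5%, beside 13.9% of all genes falling and 27.8% called. They were 1 from each branch and the common partner. SMAD3 (chr15:67065602-67195169), which carries the TGF-beta and activin signal to DNA, had 86.6 and 86.8 CPM in untreated cells, 80.6 and 87.3 at 24 µg/ml, 64.8 and 60.2 at 240 µg/ml, with 55.7 and 49.7 at 480 µg/ml. The 480 µg/ml libraries lay below those at 240 µg/ml, and both below all others. Its log2 fold change was −0.47 ± 0.12 at 240 µg/ml (edgeR adjusted p = 0.0398) and −0.72 ± 0.12 at 480 µg/ml (edgeR adjusted p = 0.00296). SMAD1 (chr4:145480770-145559176), of the BMP branch, had 14.4 and 14.0 CPM in untreated cells, 12.5 and 13.6 at 24 µg/ml, 9.28 and 9.13 at 240 µg/ml, with 9.92 and 7.86 at 480 µg/ml. Its fall was −0.62 ± 0.15 at 240 µg/ml (edgeR adjusted p = 0.0317) and −0.67 ± 0.15 at 480 µg/ml (edgeR adjusted p = 0.00984), with the upper doses apart from the others and overlapping each other.

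SMAD4 (chr18:51030213-51085042), the shared partner, had 118 and 121 CPM in untreated cells, 124 and 125 at 24 µg/ml, 95.3 and 95.8 at 240 µg/ml, with 98.5 and 78.2 at 480 µg/ml. The upper doses lay below the others, and the fall of −0.43 ± 0.13 was called at 480 µg/ml (edgeR adjusted p = 0.0374). It was −0.62 or −0.28 without replicate 1 or 2 of that dose, both called, but 9 of the 15 alternative settings lost the call, among them those without 1 of the other 6 libraries. SMAD2, the partner of SMAD3 in the TGF-beta branch, had 78.5 and 77.9 CPM in untreated cells, 71.9 and 75.3 at 24 µg/ml, 69.3 and 65.4 at 240 µg/ml, with 69.2 and 61.4 at 480 µg/ml. All its treated libraries lay below the untreated ones, by −0.26 ± 0.12 at 480 µg/ml, which was not called (edgeR adjusted p = 0.129).

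The inhibitory SMADs, which are themselves induced by the pathway and block its receptors, were not called. SMAD7 had 34.6 and 31.0 CPM in untreated cells, 33.1 and 26.1 at 24 µg/ml, 37.1 and 33.7 at 240 µg/ml, with 38.5 and 40.6 at 480 µg/ml. SMAD6 had 19.5 and 16.9 CPM in untreated cells, 22.0 and 16.0 at 24 µg/ml, 15.1 and 13.5 at 240 µg/ml, with 14.5 and 18.7 at 480 µg/ml. SMAD7 at 480 µg/ml lay above its untreated libraries by 0.27 ± 0.15 (edgeR adjusted p = 0.199), and SMAD6 overlapped its own. In the BMP branch SMAD5 and SMAD9 had log2 fold changes of 0.01 and −0.41 at 480 µg/ml, neither called. SMAD5 had 138 and 75.0 CPM at that dose, on both sides of the 100 and 112 CPM in untreated cells. SMAD9 had 8.59 and 7.08 CPM there, below the 8.78 and 12.0 CPM in untreated cells.

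Of the 5 genes of latency and release THBS1 fell and LTBP2 rose, 40% called at 480 µg/ml beside 27.8% of all genes. THBS1 (chr15:39581079-39599466) encodes thrombospondin 1, which can free TGF-beta from its latent complex. It had 70.9 and 82.4 CPM in untreated cells, 63.0 and 86.3 at 24 µg/ml, 49.6 and 41.7 at 240 µg/ml, with 28.1 and 30.0 at 480 µg/ml. The groups at 240 and 480 µg/ml did not overlap each other or any other group. Its log2 fold change was −0.75 ± 0.17 at 240 µg/ml (edgeR adjusted p = 0.0295) and −1.40 ± 0.17 at 480 µg/ml (edgeR adjusted p = 0.000896), the smallest p among the 44 genes.

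LTBP2 (chr14:74498183-74612237), a matrix protein of the LTBP family that, unlike its relatives, is not known to bind latent TGF-beta, was the gene that rose. It had 1.87 and 1.95 CPM in untreated cells, 2.60 and 2.91 at 24 µg/ml, 3.13 and 3.07 at 240 µg/ml, with 3.84 and 3.31 at 480 µg/ml. Its 4 groups did not overlap and were ordered by dose. The rise was 0.90 ± 0.19 at 480 µg/ml (edgeR adjusted p = 0.0086), and 0.70 ± 0.19 at 240 µg/ml missed the threshold (edgeR adjusted p = 0.0506). LTBP1, the most abundant of the family per length, had 99.9 and 105 CPM in untreated cells, 105 and 107 at 24 µg/ml, 129 and 112 at 240 µg/ml, with 138 and 107 at 480 µg/ml. LTBP3, which also binds latent TGF-beta, had 37.0 to 57.7 CPM in the treated libraries and 35.0 and 36.1 CPM in the untreated ones. LTBP4, an organizer of elastic fibres, had 6.33 and 8.96 CPM at 480 µg/ml, against 10.6 and 10.0 CPM in untreated cells. LTBP1, LTBP3 and LTBP4 were not called at any dose.

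**Figure D2:**
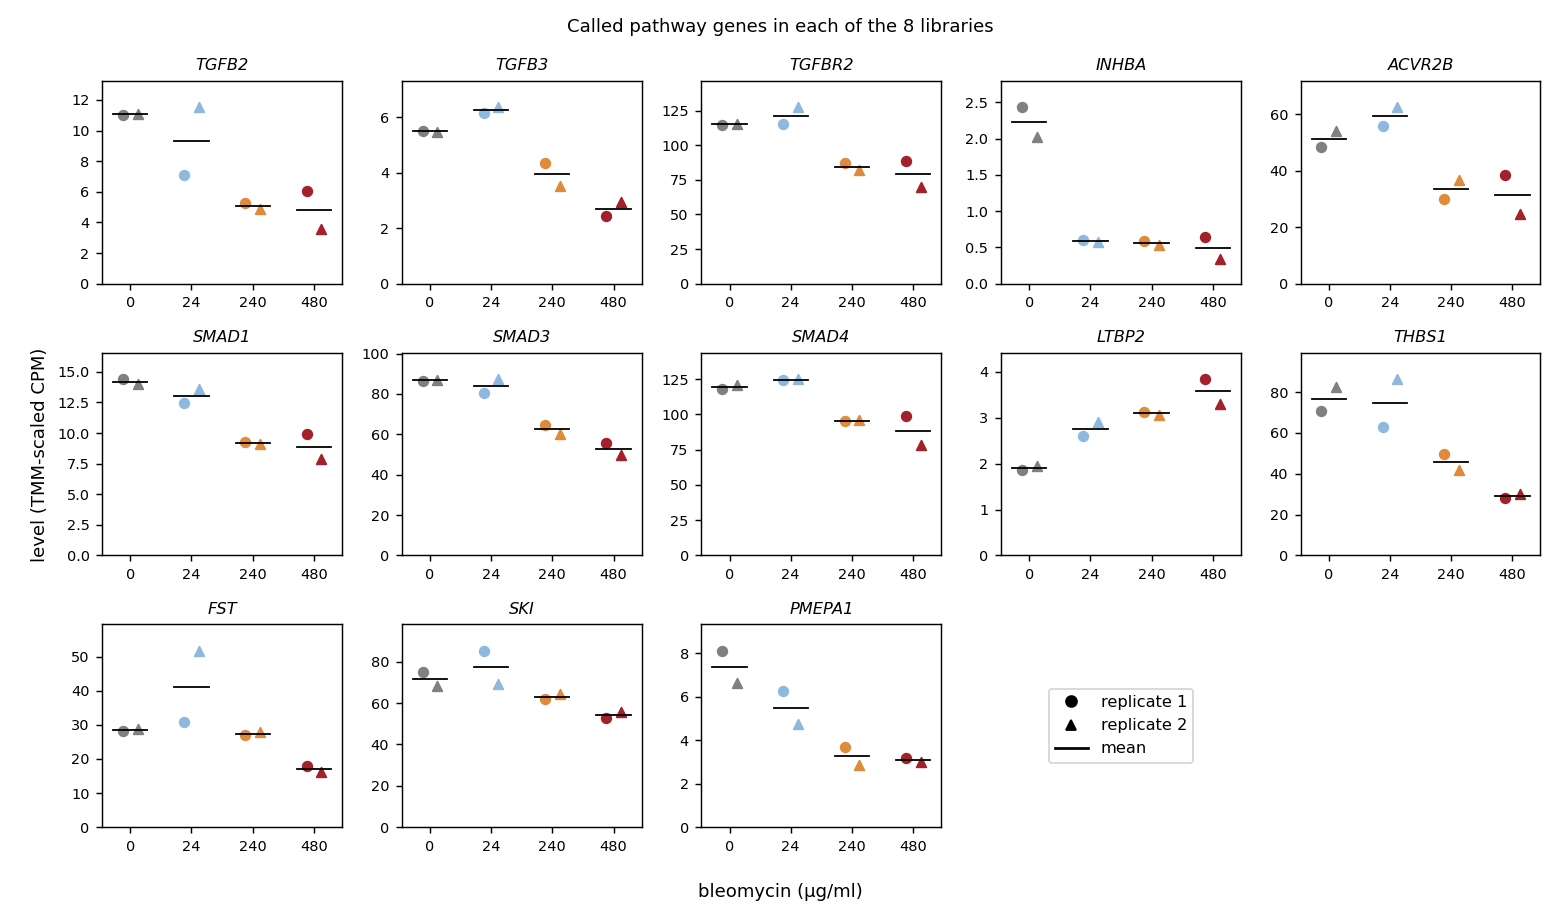
Level in TMM-scaled CPM (y axis, from 0) of the 13 called genes in each library at 0, 24, 240 and 480 µg/ml (x axis), with circles for replicate 1, triangles for replicate 2 and bars for the mean of 2. INHBA is already low at 24 µg/ml, with 0.570 to 0.604 CPM, whereas TGFB3, TGFBR2, ACVR2B, SMAD4, FST and SKI have their highest mean there.

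Of the 8 inhibitors and regulators 2 fell and 0 rose at 480 µg/ml, or 25% called, near the 27.8% of all genes called there. Of all genes 13.9% fell. FST (chr5:53480629-53487134) encodes follistatin, which traps activins. It had 28.1 and 28.8 CPM in untreated cells, 30.7 and 51.7 at 24 µg/ml, 26.9 and 27.8 at 240 µg/ml, with 17.8 and 16.1 at 480 µg/ml. Replicate 2 at 24 µg/ml stood far above every other library, and the 480 µg/ml libraries below all. The fall was −0.75 ± 0.21 at 480 µg/ml (edgeR adjusted p = 0.030), with −0.06 ± 0.21 at 240 µg/ml. SKI (chr1:2228319-2310213), a corepressor that binds SMADs, had 75.2 and 68.5 CPM in untreated cells, 85.3 and 69.4 at 24 µg/ml, 61.9 and 64.3 at 240 µg/ml, with 52.6 and 55.6 at 480 µg/ml. It fell by 0.41 on the log2 scale at the highest dose, just within the threshold (edgeR adjusted p = 0.0493).

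SKIL, the relative of SKI that TGF-beta induces, had 57.9 and 59.4 CPM in untreated cells, 58.0 and 57.4 at 24 µg/ml, 58.0 and 51.4 at 240 µg/ml, with 74.9 and 50.8 at 480 µg/ml. BAMBI, a decoy receptor, had 42.7 and 45.0 CPM in untreated cells, 41.6 and 29.7 at 24 µg/ml, 45.6 and 31.9 at 240 µg/ml, with 37.4 and 48.7 at 480 µg/ml. Both genes overlapped their untreated libraries at 480 µg/ml. FSTL3, the ubiquitin ligase genes SMURF1 and SMURF2 and the corepressor gene TGIF1 had log2 fold changes of −0.29 to 0.06 over the 3 doses, and none was called. All 8 log2 fold changes of this role lay below 0 at 240 µg/ml, and 5 of 8 at 480 µg/ml.

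The target genes did not move together. Of the 4 targets 1 fell at 480 µg/ml, or 25%, beside 13.9% of all genes falling and 27.8% called. PMEPA1 (chr20:57648396-57711472), which TGF-beta induces and which restrains SMAD signalling, had 8.11 and 6.65 CPM in untreated cells, 6.26 and 4.74 at 24 µg/ml, 3.67 and 2.86 at 240 µg/ml, with 3.19 and 2.98 at 480 µg/ml. Untreated libraries were the highest and the upper doses the lowest, and the 4 libraries of the upper doses overlapped. It fell by 1.18 at 240 µg/ml and by 1.26 at 480 µg/ml on the log2 scale, each ± 0.21 (edgeR adjusted p = 0.0129 and 0.00312). The antisense transcript NKILA shares 6.1% of its exons, with 24 to 59 counts where PMEPA1 had 175 to 451. TGFBI, a matrix protein gene named for its induction by TGF-beta, had 9.76 and 12.5 CPM in untreated cells, 10.9 and 12.7 at 24 µg/ml, 10.0 and 11.3 at 240 µg/ml, with 10.6 and 12.0 at 480 µg/ml, with overlapping groups and a log2 fold change of 0.02 at the highest dose.

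ID1 and ID3, transcriptional inhibitors that BMP signalling induces, were the most abundant of the 44 genes per length, at 108 ± 14.5 and 151 ± 2.13 TPM in untreated cells (SD, n = 2). ID1 had 53.8 and 41.3 CPM in untreated cells, 68.2 and 36.7 at 24 µg/ml, 68.1 and 62.5 at 240 µg/ml, with 64.7 and 110 at 480 µg/ml. Both upper doses lay above the untreated libraries, and 0.88 ± 0.31 at 480 µg/ml was not called (edgeR adjusted p = 0.0667). DESeq2 called it (DESeq2 adjusted p = 0.00477), and edgeR gave 1.20 without replicate 1 of that dose (edgeR adjusted p = 0.00921) and 0.44 without replicate 2 (edgeR adjusted p = 0.277). ID3 had 63.9 and 61.0 CPM in untreated cells, 53.3 and 43.3 at 24 µg/ml, 69.3 and 66.4 at 240 µg/ml, with 57.8 and 106 at 480 µg/ml. Its 480 µg/ml libraries lay on both sides of the untreated ones, with a log2 fold change of 0.39 ± 0.24. That change was 0.75 without replicate 1 of that dose and −0.11 without replicate 2.

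Beyond the 44, further genes of the pathway were listed from textbook knowledge, of which 86 were in the table and 73 were tested. At 480 µg/ml 17 of the 73 fell and 7 rose, 32.9% called beside 27.8% of all genes, and at 240 µg/ml 6 fell and 1 rose, 9.59% called beside 10.3%. Taken in both directions together, these shares are near those of all genes. By direction they leaned lower: at 480 µg/ml 23.3% fell, beside 13.9% of all genes, and 9.59% rose, beside 13.9%. At 240 µg/ml 8.22% fell, beside 5.17% of all genes, and 1.37% rose, beside 5.16%. No test was made of these shares. Of 15 further ligands 5 fell and 1 rose at 480 µg/ml, 40% called beside 27.8% of all genes. LEFTY1, a nodal antagonist, had 3.09 and 3.63 CPM at 480 µg/ml, against 25.0 and 20.6 CPM in untreated cells, and fell by 2.76 ± 0.34 on the log2 scale. INHA, the inhibin subunit gene, had 2.60 and 3.10 CPM at 480 µg/ml, against 9.26 and 9.27 CPM in untreated cells, a log2 fold change of −1.70 ± 0.17. BMP8A, a BMP ligand gene, had 9.29 and 12.5 CPM at 480 µg/ml, against 3.99 and 4.21 CPM in untreated cells, a log2 fold change of 1.41 ± 0.18. The edgeR adjusted p of these 3 genes were 0.000878, 0.000351 and 0.00101, and no library at 480 µg/ml overlapped an untreated one. LEFTY1 and BMP8A each have a close copy, LEFTY2 and BMP8B, and how the authors split reads between such copies is not given in the sources used here, so these values are uncertain.

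Of 17 further genes that trap, anchor or release ligands 5 fell (LRRC32, DCN, BGN, CRIM1 and SOSTDC1) and 1 rose (BMP1) at 480 µg/ml. That is 35.3% called, beside 27.8% of all genes. LRRC32, which anchors latent TGF-beta on the cell surface, had 0.719 and 0.956 CPM at 480 µg/ml, against 2.46 and 1.90 CPM in untreated cells, a change of −1.38 ± 0.26 (edgeR adjusted p = 0.00521). DCN, the matrix proteoglycan decorin that binds TGF-beta and is also on the list of mesenchymal markers above, had 0.561 and 0.502 CPM at 480 µg/ml, against 2.23 and 2.69 CPM in untreated cells, a change of −2.21 ± 0.37 (edgeR adjusted p = 0.00291). Of the intracellular regulators 1 of 16 was called at 480 µg/ml, or 6.25%, beside 27.8% of all genes. It was the corepressor gene TGIF2, with 43.3 and 41.1 CPM at 480 µg/ml, against 69.3 and 67.6 CPM in untreated cells.

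Of the 18 further targets tested 4 fell and 5 rose at 480 µg/ml, 50% called beside 27.8% of all genes. CDKN2B, a cell cycle inhibitor gene induced by TGF-beta, had 8.22 and 8.40 CPM at 480 µg/ml, against 17.9 and 16.7 CPM in untreated cells, a log2 fold change of −1.06 ± 0.15 (edgeR adjusted p = 0.00147). At 240 µg/ml it had 7.09 and 5.52 CPM, below the libraries at 480 µg/ml, and a change of −1.46 ± 0.15 (edgeR adjusted p = 0.0018). TAGLN, which encodes a smooth muscle actin-binding protein and can be induced by TGF-beta, had 19.8 and 22.1 CPM at 480 µg/ml, against 61.0 and 39.4 CPM in untreated cells, a log2 fold change of −1.26 ± 0.25 (edgeR adjusted p = 0.00691) whose adjusted p was 0.0557 without untreated replicate 1. At 240 µg/ml it had 10.7 and 15.2 CPM, also below those at 480 µg/ml, and a change of −1.95 ± 0.26 (edgeR adjusted p = 0.00427). Both genes were called at 240 µg/ml in all 15 alternative settings, and edgeR as reported called neither between 480 and 240 µg/ml. LMCD1 and ATOH8 were the others that fell. CCN2, the connective tissue growth factor gene, was not called, at 52.4 and 64.3 CPM against 71.9 and 64.6 CPM in untreated cells.

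The 5 targets that rose at 480 µg/ml were ID2, ID4, KLF10, TSC22D1 and ANGPTL4, named together after their values were seen. ID2 had 298 and 290 CPM at 480 µg/ml, against 190 and 187 CPM in untreated cells, a change of 0.64 ± 0.16 (edgeR adjusted p = 0.0159), and ID4 changed by 0.50 ± 0.15 (edgeR adjusted p = 0.0354). ID1, ID2, ID3 and ID4 all had log2 fold changes above 0 at this dose, of which ID2 and ID4 were called. Without replicate 2 of this dose the change was −0.11 for ID3 and 0.44 for ID1, so the sign for ID3 rested on that library.

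**Figure D3:**
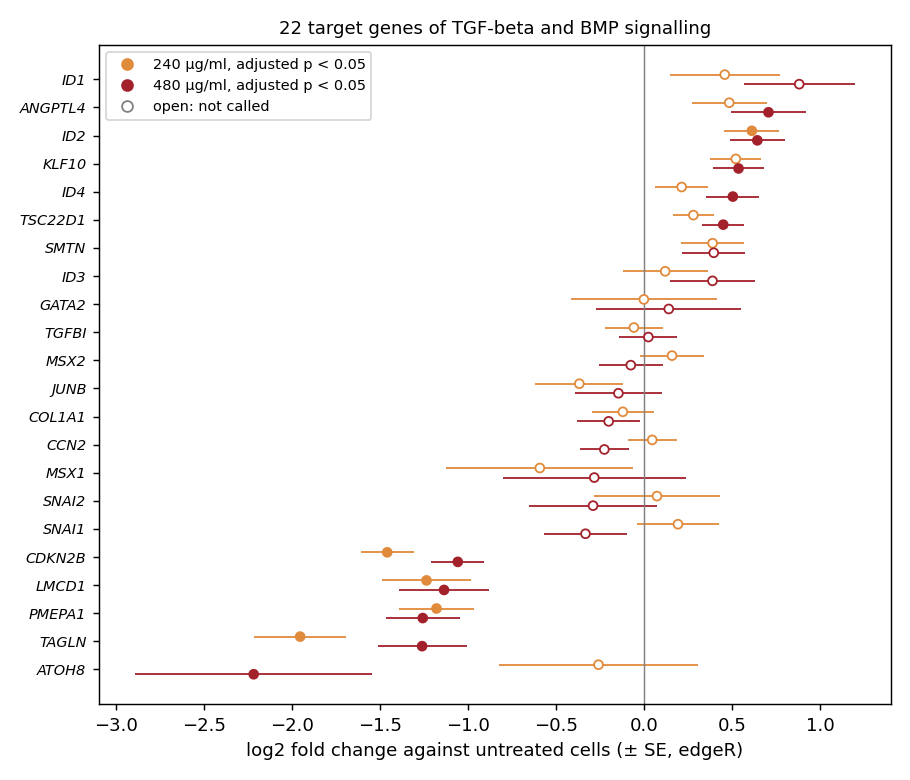
Log2 fold change against untreated cells (x axis, ± SE, edgeR) of the 22 target genes, 4 of the 44 and 18 of the wider list, at 240 and 480 µg/ml, sorted by the value at 480 µg/ml, with called genes filled. At 480 µg/ml PMEPA1, TAGLN, CDKN2B, LMCD1 and ATOH8 are filled on the left. ID2, ID4, KLF10, TSC22D1 and ANGPTL4 are filled on the right at that dose, with ID1 open at 0.88.

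Between doses few of the 44 genes were called. At 240 against 24 µg/ml 2 fell and 0 rose, where 3.49% of all genes fell, 3.34% rose and 6.83% were called in all. These were THBS1, at −0.71 ± 0.17 (edgeR adjusted p = 0.0440), and ACVR2B, at −0.82 ± 0.20 (edgeR adjusted p = 0.0468). Against 240 µg/ml, the 480 µg/ml libraries gave edgeR 0 calls of the 44, beside 0.257% of all genes, 0.229% lower and 0.0273% higher. At unadjusted p under 0.05 there were 3, beside 11.2% of all genes, all lower: THBS1 at −0.65 ± 0.17, FST at −0.69 ± 0.21 and TGFB3 at −0.54 ± 0.18 (edgeR adjusted p = 0.200, 0.255 and 0.300). DESeq2 called 1 gene as lower, THBS1 (DESeq2 adjusted p = 0.026). Of all 44 genes 23 had a lower and 21 a higher log2 fold change against untreated cells at 480 than at 240 µg/ml.

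The libraries at 480 µg/ml differed from each other more than those of any other group. The median absolute log2 ratio between the 2 libraries over the 44 genes was 0.0936 in untreated cells, 0.146 at 24 µg/ml, 0.131 at 240 µg/ml and 0.335 at 480 µg/ml. Over all genes it was 0.15, 0.152, 0.147 and 0.368 in the same order. Of the 10 receptors 9 were higher in replicate 1 at 480 µg/ml, with a median log2 ratio of replicate 2 over 1 of −0.48, and 6 of 8 SMADs were, while ID1 and ID3 were higher in replicate 2. In untreated cells 9 of 10 receptors were higher in replicate 2, by a median of 0.17. Without replicate 1 of 480 µg/ml 18 of the 44 genes fell and 5 rose at that dose, and without its replicate 2 there were 12 that fell and 4 that rose. All genes moved likewise: 4160 fell and 3729 rose without replicate 1, and 3206 fell and 2970 rose without replicate 2, in place of 2535 and 2550. With either untreated library left out 5 members fell and 0 rose, where 1294 to 1332 of all genes fell and 954 to 956 rose, and TGFB2, TGFBR2, ACVR2B, SMAD1, SMAD4, FST, SKI and LTBP2 were no longer called.

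**Figure D4:**
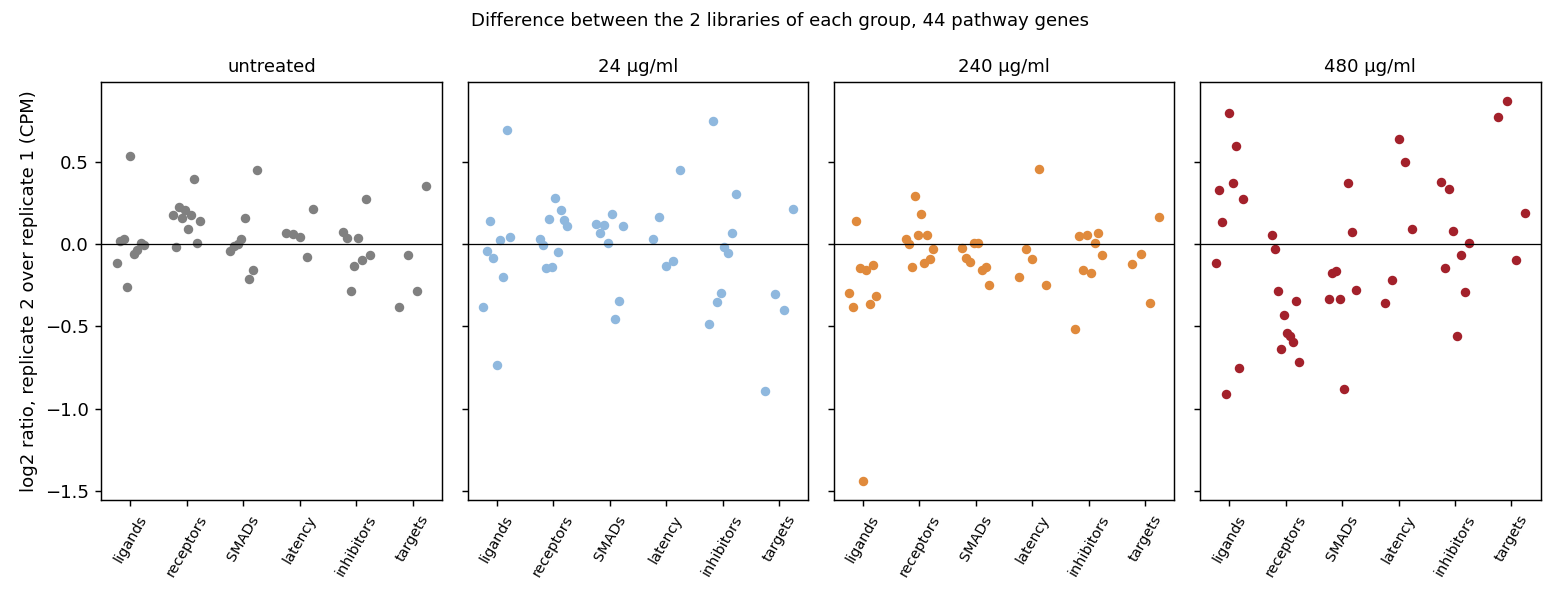
Log2 ratio of replicate 2 over replicate 1 in CPM (y axis) for each of the 44 genes by role (x axis) in 1 panel per group, ordered by dose. At 480 µg/ml most receptors lie below 0 and the points spread from −0.91 to 0.87.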

How the data were processed

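Messenger RNA libraries (TruSeq stranded kit, per the labels' protocols) gave 3 deposited tables with 1 value per gene symbol and library. The deposited counts are whole-number read counts without normalization. The deposited TPM values are per gene length and sum to the same total in each library. The deposited FPKM values, a constant multiple of TPM within a library, were not used. The build was GRCh38 (hg38) and the tools StringTie, HISAT2, Bowtie2 and Trimmomatic, per the submitters' processing notes, which give no versions; the annotation and the strand counted are not given in the sources used here.

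Counts were tested with edgeR 4.0.16 in R 4.3.3: TMM factors, filterByExpr (at least 10 counts, 15 in total), a quasi-likelihood fit of all 8 libraries by group alone, and p-values adjusted by Benjamini-Hochberg over 18303 genes. The SE is the log2 fold change divided by the root of the F statistic. CPM are TMM-scaled, and 3 counts stand for 0.0443 to 0.0561 CPM. The method was also run on simulated counts in which few genes were changed, unlike the many called at the highest dose. The outcome is not given here and is not used as support. Alternatives were RLE factors, no filter, a minimum of 50 counts in 2 libraries, a fit of only the 2 groups compared, the replicate number as a block, DESeq2 1.42.0, limma 3.58.1 on log2(TPM + 1) and each of the 8 libraries left out. Genes named with every library were the called members, up to 6 per role by smallest p, a fixed set of key members, and of the wider list up to 8 by smallest p with CCN2. A further gene on that list is not reported here. Further genes were given by range or named to complete a count. Members and lists were chosen with earlier results of these data known. Coordinates are from RefSeq on GRCh38.p14 and exon overlaps from GENCODE v29.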

Additional observations from a re-analysis of the deposited data

How the results depend on the processing

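None of the named genes changed direction while called, under any of the 15 settings, and the calls of TGFB3, INHBA, SMAD3, THBS1 and PMEPA1 at 480 µg/ml held in all 15. TGFB2 and LTBP2 were called at 480 µg/ml in 13 of 15, SMAD1 in 12, TGFBR2 in 11, FST in 9, and ACVR2B, SMAD4 and SKI in 6 each. The cause of the changes was not tested.

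At 480 µg/ml the members that fell numbered 7 in place of 12 with only the 2 groups compared, and those that rose 2 in place of 1 with no filter and with DESeq2. At 240 µg/ml the members that fell numbered 12 in place of 6 with only the 2 groups compared and 3 with limma. Those that rose numbered 1 with no filter, with the stricter filter and with DESeq2, and 3 with only the 2 groups, in place of 0. At 24 µg/ml 1 member fell with no filter and with DESeq2. At 240 against 24 µg/ml the members that fell numbered 7 with no filter, 10 with only the 2 groups, 8 with DESeq2 and 0 with limma, in place of 2, and 2 rose with only the 2 groups. At 480 against 240 µg/ml 2 fell with no filter and 1 with DESeq2, in place of 0. Of the wider genes at 240 µg/ml 3, 3, 6 and 4 rose with no filter, the stricter filter, only the 2 groups and DESeq2, in place of 1, and 12 and 16 fell with no filter and only the 2 groups, in place of 6. At 480 µg/ml 2 of them rose with only the 2 groups, in place of 7. Against untreated cells, calls over all genes also moved with the settings, as given below. For the comparisons between doses such counts over all genes are not printed here. The member counts there thus cannot be read as particular to the members.

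Leaving out 1 library at a time, 5 to 18 members fell and 0 to 5 rose at 480 µg/ml, fewest without an untreated library. At 240 µg/ml 0 to 11 fell and 0 to 2 rose, and at 24 µg/ml 0 to 1 fell. At 240 against 24 µg/ml 0 to 10 fell and 0 to 2 rose, and at 480 against 240 µg/ml 0 to 2 fell and 0 to 1 rose. Of the wider genes 9 to 23 fell and 1 to 11 rose at 480 µg/ml, and 2 to 14 fell and 0 to 6 rose at 240 µg/ml. A lone library was assumed to vary like the other groups. Calls over all genes moved widely as well in these fits, so such ranges are not particular to the members.

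Over all genes tested, same-numbered libraries of 2 groups deviated together with correlations of −0.0797 to 0.0449. These values cannot show whether such libraries shared a culture or a batch. With the replicate number as a block 3 members fell at 240 µg/ml and 0 at 240 against 24 µg/ml, and 0 wider genes rose at 240 µg/ml.

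Over all genes, calls with only the 2 groups compared were 2660 higher and 2739 lower at 240 µg/ml, in place of 945 and 947, and 1308 higher and 1550 lower at 480 µg/ml, in place of 2550 and 2535. With no filter 1490 fell at 240 µg/ml, and 60 rose and 23 fell at 24 µg/ml. At 24 µg/ml DESeq2 called 32 higher and 4 lower and only the 2 groups 12 and 2, in place of 0 and 0. limma on TPM moved the median of all genes by −0.101 at 240 µg/ml and −0.109 at 240 against 24 µg/ml on the log2 scale, and called 539 genes higher at 240 µg/ml, where the block called 628.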

Other observations

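For 4 of the 44 genes the ratio of counts to TPM, which follows the gene length the authors used, differed from the untreated mean by more than 0.15 on the log2 scale in some library, as it did for 13.2% of 15684 genes. SMAD2 showed it most. In TPM it had 11.6 and 12.7 at 24 µg/ml, against 7.30 and 10.0 in untreated cells, a higher level. In CPM it had 71.9 and 75.3 at 24 µg/ml, against 78.5 and 77.9 in untreated cells, a lower level. INHBA, TGIF1 and ACVR1 were the other 3. INHBA was low at all doses on both scales, with 0.171 and 0.166 TPM at 24 µg/ml, against 0.889 and 0.658 TPM in untreated cells.

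Per length, the 44 genes spanned a wide range in untreated cells, from INHBB at 0.328 ± 0.106 TPM to ID3 at 151 ± 2.13 TPM (SD, n = 2), with a median of 17.6 TPM. There were 31 genes above 10 TPM and 4 below 1 TPM, namely INHBA, LTBP2, INHBE and INHBB. Summed over a role, receptors reached 241 and 167 TPM at 480 µg/ml, against 210 and 240 TPM in untreated cells. SMADs, SMAD2 among them, reached 156 and 106 TPM at 480 µg/ml, against 150 and 163 TPM in untreated cells. The 4 targets, most of it ID1 and ID3, reached 313 and 455 TPM at 480 µg/ml, against 280 and 265 TPM in untreated cells. In the first 2 sums the libraries at 480 µg/ml lay on both sides of an untreated one.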
